A study of Mus musculus with 2 samples.

Results

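Retinoic acid synthesis and response was followed in cultured mouse fetal thymic stroma through 9 genes. They were Aldh1a1, Aldh1a2 and Aldh1a3, Crabp1 and Crabp2, Rara, Rarb and Rarg, and Cyp26b1. The genes were fixed by name, and every probe other than a control whose gene name or transcript accession gave 1 of them was taken. This gave 12 probes of the 41174 on the array, and the 9 genes were among 19505 that could be named.

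Each of 2 arrays measured 2 cultures of thymic stromal cells together, flat dish culture (2D culture) in the green dye Cy3 and reaggregation thymus organ culture (RTOC) in the red dye Cy5. One array held cells of E14.5 fetal thymus after 8 days of fetal thymus organ culture, and the other held cells of E15.5 fetal thymus after 9 days. Cells of both cultures on both arrays came from C57BL/6 lobes kept with 1.35 mM deoxyguanosine, which depletes haematopoietic cells, and were dispersed and collected after 72 h. Dispersed cells spread over the bottom of a dish in 2D culture and pack together again on a membrane in RTOC. With 1 array for each stage, the stage, the days of organ culture and the array itself cannot be told apart. The dyes were not swapped, and the number of fetuses behind each RNA was not given in the sources used here. The p-values therefore rest on 2 arrays and on the spread that limma shares over probes, with no measure of the spread between animals, and the smallest p that an exact two-sided sign-flip test could give with them is 0.5.

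Retinoic acid is a small lipid made from vitamin A. Retinol is oxidized to retinal by alcohol and retinol dehydrogenases, and the ALDH1A enzymes oxidize retinal to retinoic acid. Cytosolic CRABP proteins carry retinoic acid, nuclear RAR receptors paired with RXR receptors bind it and regulate genes through response elements in DNA, and CYP26 enzymes degrade it. In embryos, cells that make retinoic acid and neighbouring cells that degrade it set up local differences in its level. In the thymus, retinoids made by mesenchymal cells are known to act on the epithelium.

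Start sites of 7 of the 9 genes were found in RefSeq's table of mouse promoters (assembly GRCm38.p6), as 12 windows of 300 bases that run from before each start to just after it. Retinoic acid response elements are paired half-sites in direct repeat. The half-site is AGGTCA, in which the first base may also be G and the third T. The DR5 form, with 5 bases between half-sites, was searched on both strands and was present in 32 of all 32851 windows (0.0974%). Among the members it was present in the window of Rarb alone. The 250 bases before this start of Rarb are printed because they hold the element, in capitals, at 53 to 37 bases before the start. Those of Aldh1a2 and Cyp26b1 are printed because these genes changed in opposite directions and carry no such match. For Cyp26b1 the 152 bases outside the annotated gene (chr6:84571414-84593908) are shown, and the stretch of Aldh1a2 ends just before its gene (chr9:71215789-71296243). The printed start of Rarb lies within its gene (chr14:16430839-17082331).
Rarb, chr14:16575477-16575726, minus strand: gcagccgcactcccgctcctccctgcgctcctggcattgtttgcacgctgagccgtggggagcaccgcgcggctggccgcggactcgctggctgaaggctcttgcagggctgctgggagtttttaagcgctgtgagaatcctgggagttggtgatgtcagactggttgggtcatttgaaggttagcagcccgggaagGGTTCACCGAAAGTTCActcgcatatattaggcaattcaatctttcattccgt
Aldh1a2, chr9:71215539-71215788, plus strand: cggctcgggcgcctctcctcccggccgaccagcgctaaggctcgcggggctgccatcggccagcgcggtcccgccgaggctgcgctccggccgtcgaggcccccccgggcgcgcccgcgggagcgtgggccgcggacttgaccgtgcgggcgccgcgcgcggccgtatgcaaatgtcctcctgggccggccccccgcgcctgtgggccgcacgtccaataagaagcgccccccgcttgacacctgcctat
Cyp26b1, chr6:84593909-84594060, minus strand: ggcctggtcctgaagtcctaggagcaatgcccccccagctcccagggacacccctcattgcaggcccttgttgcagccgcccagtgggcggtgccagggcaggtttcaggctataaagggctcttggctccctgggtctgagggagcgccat
The DR2 form, with 2 bases between the same half-sites, was in 88 of the 32851 windows (0.268%) and in no window of a member. A match describes the letters in a window, and the absence of a match says nothing of sites elsewhere.

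Cyp26b1 and Aldh1a1 were higher in RTOC than in 2D culture, and Aldh1a2, Rara and Rarg were lower. Aldh1a3, Rarb and Crabp2 did not pass the test, and Crabp1 was too dim to be tested. A probe was tested where at least 1 culture was well above background on each array, and a gene was read from its brightest tested probe. So 8 of the 9 genes were tested, of which 5 had an adjusted p under 0.05 in limma, while over all genes 3795 of 13506 did (28.1%) and over all probes 6820 of 23685 (28.8%). Higher in RTOC were 2 of the 8, where the share over all genes was 15.4%, and lower were 3, where it was 12.7%. The median log2 ratio of RTOC over 2D culture was -1.23 over the 8 genes and 0.0025 over all genes tested. The median of the 8 lies between the values of Rara and Rarg, both close to background. With normexp background correction and loess in place of the quantile step, Rara and Rarg each had a mean of -0.18 and neither passed. Both met the filter at E14.5 through 2D culture alone. Of the 8, 6 were well above background in all 4 channels.

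**Figure D1:**
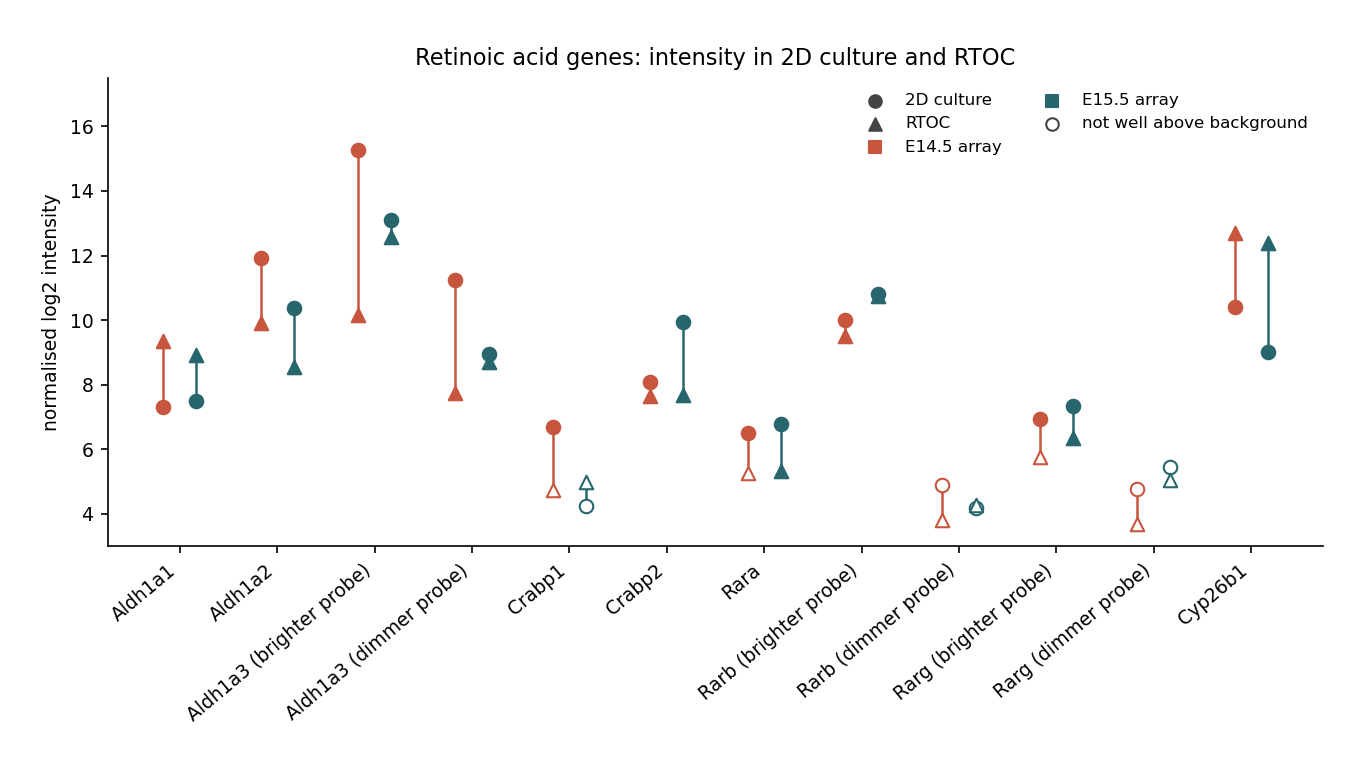
Normalised log2 intensity (vertical axis) of each of the 12 probes of the 9 genes, with circles for 2D culture, triangles for RTOC, and a line that joins the 2 cultures of an array. Open symbols mark a channel not well above background; Cyp26b1 and Aldh1a1 have the triangle above the circle on both arrays, and Aldh1a2 and both probes of Aldh1a3 have it below.

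The enzymes of synthesis did not move together. Aldh1a2 is the main retinoic acid-making enzyme of embryonic mesenchyme. Its processed signal, the authors' background-subtracted and dye-normalised intensity, was 4126 in 2D culture at E14.5, against 988 in RTOC. At E15.5 it was 1284 and 365. RTOC was thus below 2D culture on each array, and every signal at E15.5 was below its E14.5 counterpart. The log2 ratio on quantile-normalised values was -2.03 at E14.5 and -1.84 at E15.5. Aldh1a2 was lower in RTOC by a factor of 3.82, and its mean log2 ratio was -1.94 ± 0.14 (SD, n = 2 arrays), with an adjusted p of 0.00569 in limma.

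Aldh1a1, a second retinal dehydrogenase that is widespread in adult tissues, changed the other way. It is annotated at chr19:20492583-20643463. Its processed signal was 157 in 2D culture and 674 in RTOC at E14.5, and 177 and 468 at E15.5. Both RTOC signals lay above both 2D signals, and the 2D signals of the arrays were close to each other. Log2 ratios of 2.05 and 1.41 resulted. Their mean was 1.73 ± 0.45 (SD, n = 2 arrays), a 3.31-fold higher level in RTOC with an adjusted p of 0.0111 in limma. With normexp background correction and loess in place of the quantile step, the mean was 0.74 and still past the threshold.

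Aldh1a3, the remaining enzyme of synthesis, made by several epithelia, differed more between the arrays than almost any other gene. The gene lies at chr7:66390892-66427477. Its brighter probe read 42735 in 2D culture at E14.5, against 1181 in RTOC. At E15.5 it read 8327 and 5706. With log2 ratios of -5.12 and -0.55, the E14.5 array had a 34.8-fold difference and the E15.5 array a 1.46-fold one, in the same direction. The mean of -2.83 ± 3.24 (SD, n = 2 arrays) did not pass the test (adjusted p = 0.0877 in limma). It came to -2.71 with an adjusted p of 0.0362 when each array was centred on its median in place of the quantile step.

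A second, dimmer probe of Aldh1a3 had the same pattern. It read 2509 and 215 at E14.5 and 484 and 411 at E15.5, with log2 ratios of -3.50 and -0.24 (adjusted p of the mean 0.112 in limma). Both probes were well above background in all 4 channels. The 2 arrays differed by 4.58 on the log2 scale for the brighter probe. Over the 13506 genes tested the median difference in size was 0.39, and 6 genes, Aldh1a3 included, differed by as much (0.0444%). Both cultures contributed to it. From E14.5 to E15.5 the normalised log2 level of the brighter probe was 2.16 lower in 2D culture and 2.41 higher in RTOC, each from 1 measurement.

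**Figure D2:**
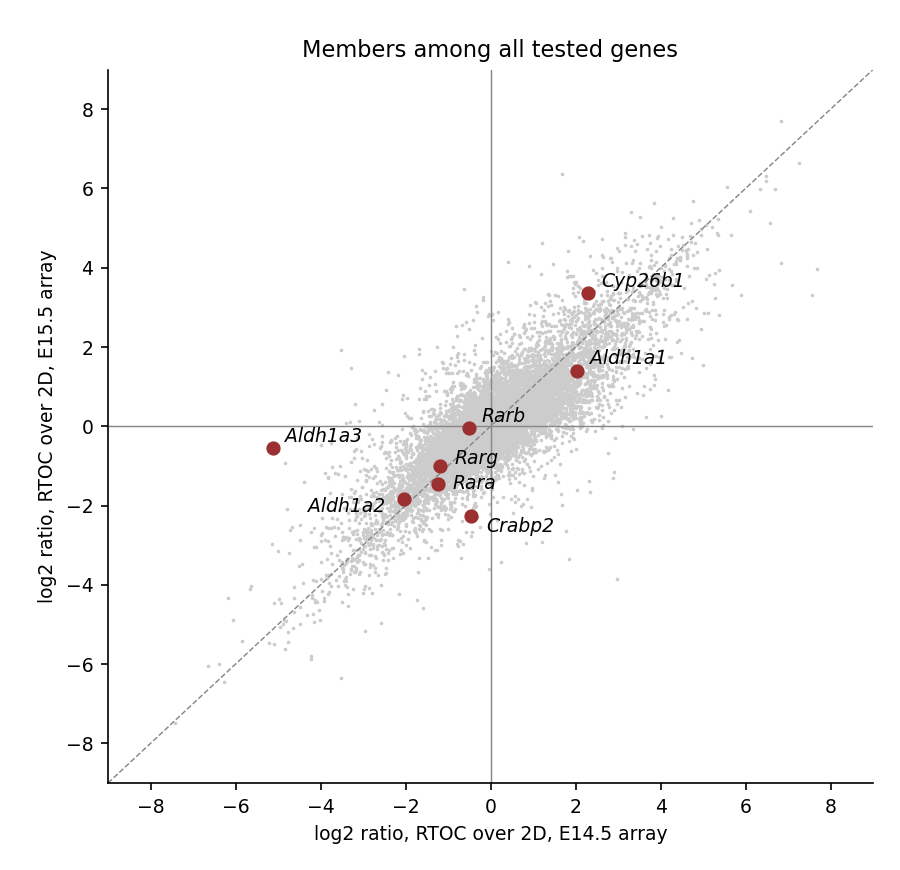
Log2 ratio of RTOC over 2D culture on the E14.5 array (horizontal axis) and the E15.5 array (vertical axis) for 13506 tested genes (grey) and the 8 tested members (red), each by its brightest tested probe; the dashed line marks equal ratios. Aldh1a3, at -5.12 and -0.55, lies far from the line, and Crabp2, at -0.45 and -2.26, lies off it on the other side.

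The binding proteins were the least well measured group. Crabp2 carries retinoic acid to the nuclear receptors. It read 274 in 2D culture and 202 in RTOC at E14.5, and 952 and 207 at E15.5. RTOC had nearly the same signal on both arrays, and the 2D culture of E15.5 stood apart from the other 3 channels. Its log2 ratios, -0.45 and -2.26, averaged -1.35 ± 1.27 (SD, n = 2 arrays), which did not pass the test (adjusted p = 0.0776 in limma). The adjusted p was 0.0480 with median centring. Of all genes tested, 408 had ratios at least as far apart (3.02%).

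Crabp1 also binds retinoic acid in the cytosol. It was well above background in 2D culture at E14.5, with a processed signal of 99.9, and in no other channel. The other 3 channels read 28.8 in RTOC at E14.5, and 17.8 in 2D culture and 35.7 in RTOC at E15.5. Crabp1 was not tested for this reason, and no fold is given.

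The receptor Rarb was well above background in all 4 channels. It is itself induced by retinoic acid in many cells, through the element printed in capitals above. Its probe, printed in 10 spots, read 1047 in 2D culture and 748 in RTOC at E14.5, and 1726 and 1651 at E15.5. The cultures lay close together on each array, and both signals at E15.5 were above both at E14.5. The log2 ratios were -0.50 and -0.05. Between spots, the log2 ratios of processed signals, before quantile normalization, had SDs of 0.113 and 0.0345. The difference between cultures did not pass the test, at a mean of -0.27 ± 0.32 (SD, n = 2 arrays) with SE 0.27 and an adjusted p of 0.475 in limma. Another probe of Rarb was not well above background in any channel.

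The receptors Rara, found in most tissues, and Rarg, found in many epithelia, were close to background. Rara read 87.2 in 2D culture and 40.9 in RTOC at E14.5, and 107 and 44.3 at E15.5. RTOC was below 2D culture on both arrays, and the RTOC channel of E14.5 was not well above background. The log2 ratios of -1.24 and -1.47 gave a mean of -1.35 ± 0.16 (SD, n = 2 arrays), with an adjusted p of 0.0165 in limma. With normexp background correction and loess the mean was -0.18 and the adjusted p 0.348.

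Rarg read 121 in 2D culture and 56.6 in RTOC at E14.5, where RTOC was not well above background, and 158 and 84.1 at E15.5. Again RTOC was the lower culture on both arrays. Log2 ratios of -1.19 and -1.004 averaged -1.10 ± 0.13 (SD, n = 2 arrays), with an adjusted p of 0.0285 in limma. This call was lost, at an adjusted p of 0.350 and a mean of -0.18, with normexp and loess. A second probe of Rarg was not well above background in any channel. Neither receptor passed under that setting, and neither had all 4 channels well above background.

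Cyp26b1, which degrades retinoic acid, had the highest mean ratio of the members. Its processed signal was 1403 in 2D culture and 7148 in RTOC at E14.5, and 507 and 5034 at E15.5. Both RTOC signals were above both 2D signals. Its log2 ratios were 2.30 and 3.36, that is 4.93-fold and 10.3-fold. The mean was 2.83 ± 0.75 (SD, n = 2 arrays), a 7.12-fold higher level in RTOC (SE 0.34, adjusted p = 0.00435 in limma). With normexp and loess the mean was 2.12 and kept its call. Of the 13506 genes, 366 had a mean ratio as high, Cyp26b1 included.

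**Figure D3:**
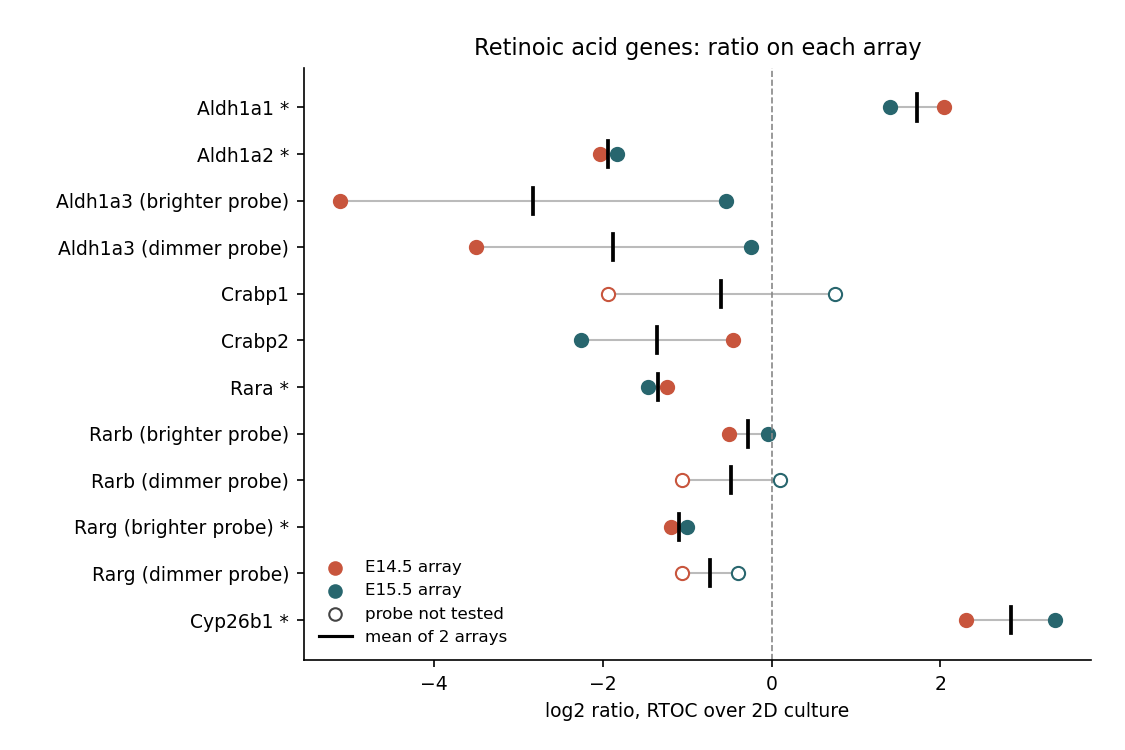
Log2 ratio of RTOC over 2D culture (horizontal axis) of each probe, in 1 colour per array, with a black bar at the mean of the 2 arrays; an asterisk marks an adjusted p under 0.05 in limma and open circles a probe not tested. Cyp26b1, at 2.30 and 3.36, and Aldh1a1, at 2.05 and 1.41, lie to the right of 0, and Aldh1a2 to the left at -2.03 and -1.84.

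Processing changed the size of the members' ratios and not their sign. Among the 8 tested genes, Cyp26b1, Aldh1a1 and Aldh1a2 were past the threshold with quantile normalization, with median centring, with the log ratios as deposited, and with normexp and loess. Aldh1a2 had an adjusted p of 0.105 in a fit that treats the 4 channels as unpaired. No member passed without the filter on dim probes, or by the methods' t-test once adjusted.

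**Figure D4:**
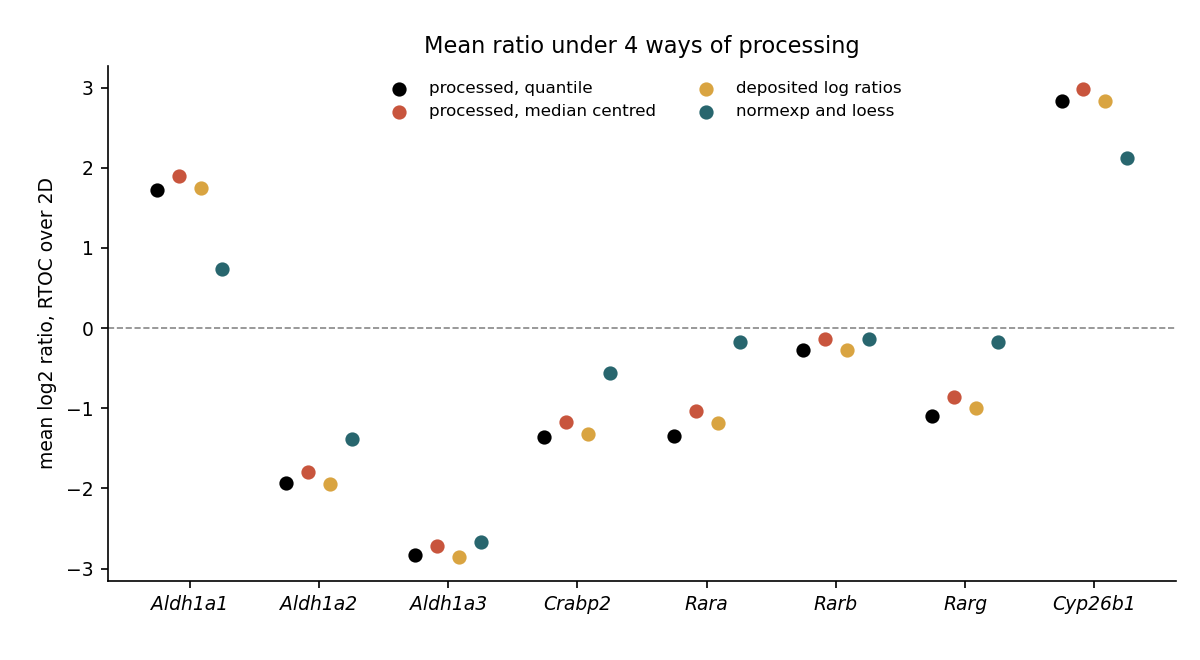
Mean log2 ratio of RTOC over 2D culture (vertical axis, n = 2 arrays) of the 8 tested members under 4 ways of processing, without error bars. The signs are the same throughout, while Rara and Rarg lie near 0 with normexp and loess, at -0.18 each.

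Of 57 other genes of retinoid uptake, metabolism, receptor partnership and response, 56 had a probe and 37 were tested. In RTOC 10 of them were higher and 3 lower, and 24 did not pass. Their median log2 ratio was 0.35. Over all genes tested, 15.4% were higher and 12.7% lower, and the counts by role below stand beside the same shares. The genes that oxidize or reduce retinol and retinal included the largest change of the list. Adh1, an alcohol dehydrogenase that oxidizes retinol, read 230 in 2D culture and 2409 in RTOC at E14.5, and 464 and 5180 at E15.5. RTOC was the higher culture on each array by about the same factor, with log2 ratios of 3.34 and 3.53. Adh1 was 10.8-fold higher in RTOC (adjusted p = 0.00175 in limma), and its mean log2 ratio of 3.43 became 2.51, still past the threshold, with normexp and loess. A second probe gave 12.2-fold, and another was not well above background in any channel.

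Rdh10, the main retinol dehydrogenase of the embryo, had log2 ratios of -0.46 and -0.30 and did not pass (adjusted p = 0.299 in limma). Rdh13, another member of that family, was lower in RTOC, with a mean of -0.95 (adjusted p = 0.0428 in limma), but its second probe had a mean of -0.28 and did not pass. The call of Rdh13 was lost with median centring (adjusted p = 0.0723), with normexp and loess (mean -0.50, adjusted p = 0.0851), with the median over its probes (0.114) and with no replicate block (0.144). Dhrs3 reduces retinal back to retinol and is induced by retinoic acid in many cells. Its brighter probe read 1088 in 2D culture and 4957 in RTOC at E14.5, and 8314 and 8716 at E15.5. The 2D culture of E14.5 was thus the low channel and the other 3 were closer together. Log2 ratios of 2.17 and 0.07 resulted, and the mean of 1.12 ± 1.48 (SD, n = 2 arrays) did not pass (adjusted p = 0.154 in limma). A second probe gave 1.85 and -0.58. Of the 11 tested genes that oxidize or reduce retinol and retinal, Adh1 and 1 other were higher and Rdh13 was lower.

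Among 6 tested genes of uptake, transport and storage, 3 were higher in RTOC and 1 lower. Fabp5, a fatty acid-binding protein that can also carry retinoic acid, had log2 ratios of 1.29 and 2.38 (mean 1.83 ± 0.78, SD, n = 2 arrays; adjusted p = 0.0161 in limma), with a mean of 0.86 that still passed under normexp and loess. Rbp4, the carrier of retinol in blood, had 0.80 and 2.50 (adjusted p = 0.0426 in limma), and its mean dropped from 1.65 to 0.66, past no threshold, with normexp and loess. It also missed the threshold with no replicate block (adjusted p = 0.0620). Scarb1, a receptor that takes up lipoproteins and carotenoids, had 1.68 and 1.52 (adjusted p = 0.00963 in limma). Dgat1, which can esterify retinol, was lower at -0.80 and -1.12 (adjusted p = 0.0435 in limma), a call lost with median centring (0.0654), with no replicate block (0.0958) and with normexp and loess (mean -0.46, adjusted p = 0.109). Stra6, the membrane receptor for retinol-loaded RBP4, did not pass, and neither of its 2D culture channels was well above background.

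Receptor partners included 3 genes of 10 tested that were higher in RTOC and none that was lower. Rxra, the most widespread partner of the RAR receptors, read 3403 in 2D culture and 7676 in RTOC at E14.5, and 2774 and 8304 at E15.5. Both RTOC signals were above both 2D signals, with log2 ratios of 1.15 and 1.61, a 2.60-fold difference (adjusted p = 0.0179 in limma). A dimmer probe of Rxra was not tested and did not show this difference. It read 109 in 2D culture and 111 in RTOC at E15.5, both well above background, with a log2 ratio of -0.07. At E14.5 neither channel of that probe was well above background, and the ratio was 0.23. Rxrb had log2 ratios of 0.59 and 0.30 and did not pass (adjusted p = 0.240 in limma), and Rxrg was not well above background in any channel. Nr2f1, an orphan nuclear receptor that binds similar repeats, had log2 ratios of 1.45 and 2.07 (adjusted p = 0.0103 in limma), but its 2D channel at E15.5 was not well above background and its mean was 0.43, short of the threshold, with normexp and loess.

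The 10 tested genes that respond to retinoic acid in other cells did not share a direction, with 2 higher, 1 lower and 7 that did not pass. Rarres2, which encodes the chemoattractant chemerin, had log2 ratios of 3.26 and 1.71, a 5.60-fold higher mean in RTOC (adjusted p = 0.0114 in limma). Its mean log2 ratio was 2.48, or 1.58 and still past the threshold with normexp and loess, and with no replicate block its adjusted p was 0.0536. Hic1, a transcriptional repressor, had 1.26 and 1.32 (adjusted p = 0.0178 in limma). Tgm2, a transglutaminase, was lower in RTOC and read 2560 in 2D culture and 1173 in RTOC at E14.5, and 8531 and 2791 at E15.5. Each signal at E15.5 was above its E14.5 counterpart, and RTOC was the lower culture on both arrays. Its log2 ratios were -1.11 and -1.64 (mean -1.37 ± 0.38, SD, n = 2 arrays; adjusted p = 0.0193 in limma), and with no replicate block the adjusted p was 0.247. Cyp26a1, a degrading enzyme that retinoic acid induces in many cells, was not well above background in any channel.

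**Figure D5:**
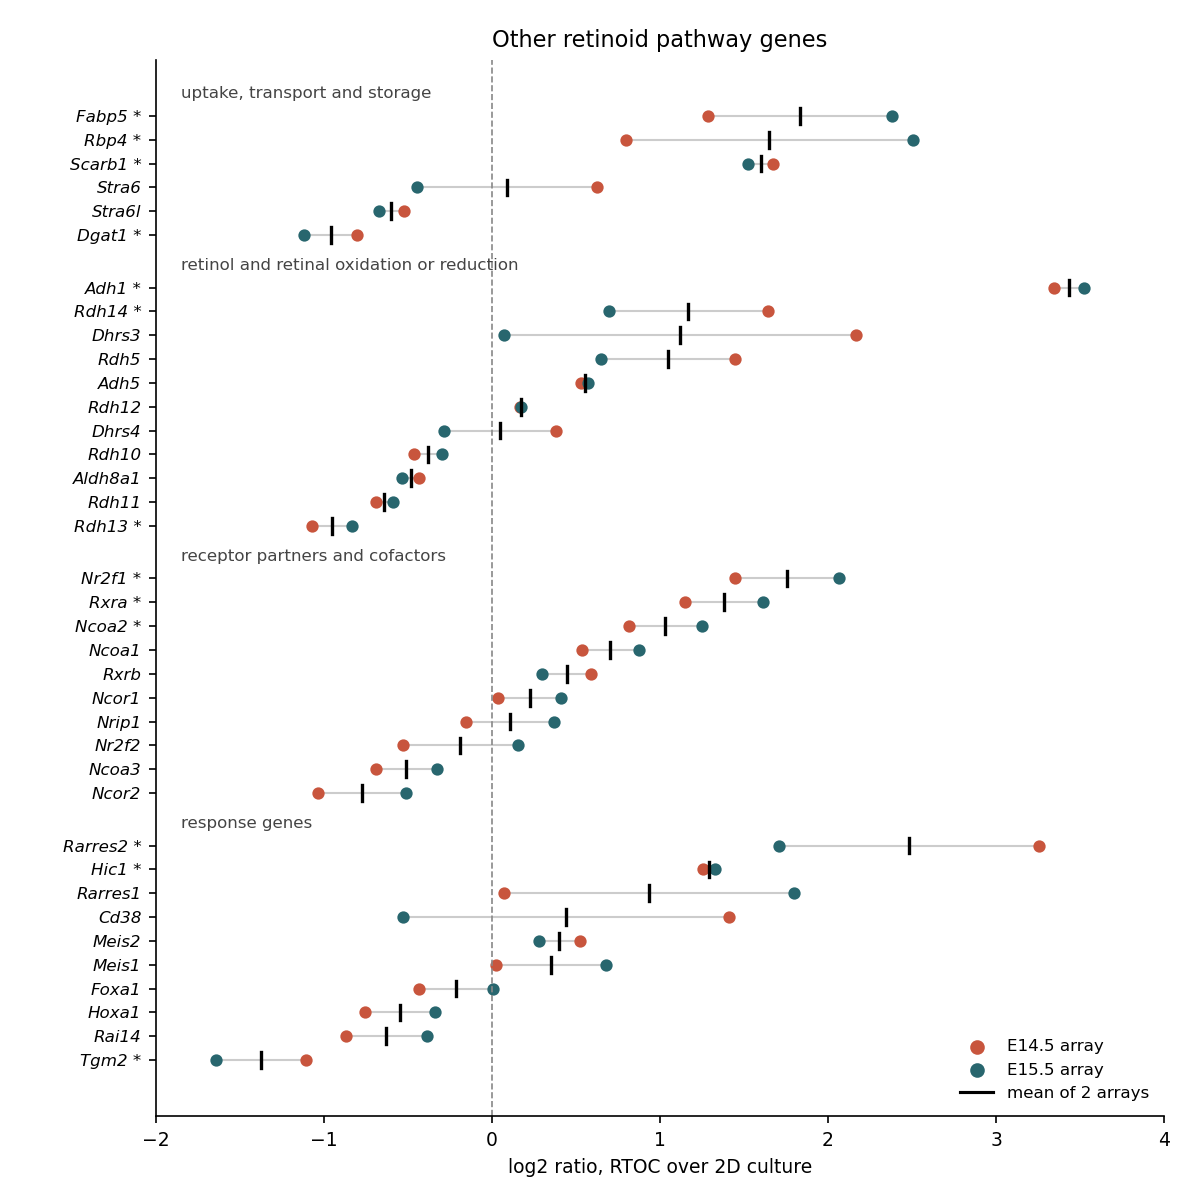
Log2 ratio of RTOC over 2D culture (horizontal axis) of the 37 other pathway genes tested, grouped by role, in 1 colour per array, with a bar at the mean of 2 arrays; an asterisk marks an adjusted p under 0.05 in limma. Adh1 stands to the right at 3.34 and 3.53, and Dhrs3 has its arrays far apart at 2.17 and 0.07.

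The RNA is of whole cultures, in which fewer cells of a type and less RNA per cell cannot be told apart. The counts of markers below stand beside shares of 15.4% higher and 12.7% lower over all genes tested. Epithelial markers were well above background in all 4 channels, in keeping with the label of thymic stroma, with 4 of 10 higher in RTOC and 3 lower. Their median log2 ratio was 0.998 at E14.5 and -0.03 at E15.5, and their summed normalised intensity was 317615 and 650607 in 2D culture and 727006 and 807699 in RTOC (E14.5, then E15.5, as in the next sums). Psmb11, a thymoproteasome subunit, and Trp63, an epithelial transcription factor, had the largest ratios, with means of 3.90 and 3.70. Krt5 at 2.90 and Foxn1 at 2.65 were also higher. Krt19 at -2.14, Krt14 at -1.86 and Cdh1 at -1.28 were lower. Fibroblast and mesenchyme markers were split, with 3 of 11 higher and 5 lower. The higher ones were Lum at 4.55, Pdgfra at 2.84 and Dcn at 1.94. The lower ones were Fbn1 at -2.25, Col1a1 at -2.16, Thy1 at -1.25, and Col1a2 and Pdgfrb at -1.22 each. The median of the 11 was -0.74 and their sum 454822 and 340967 in 2D culture and 277981 and 295514 in RTOC.

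Smooth muscle and mesothelium markers were mostly lower. Of 6 smooth muscle and pericyte markers tested, 4 were lower and 1 higher, with Tagln at -4.33 and Cnn1 at -4.02. The higher one was Rgs5, with a mean log2 ratio of 3.25 (adjusted p = 0.00319 in limma). Myh11 had log2 ratios of -0.62 and 0.95 and did not pass. The sum of the 6 tested was 575073 and 493456 in 2D culture and 66772 and 41805 in RTOC. Of 3 mesothelium markers tested, Msln was lower at -3.36 and Krt7 at -2.77. The third, Wt1, had log2 ratios of -0.90 at E14.5 and 0.53 at E15.5 and did not pass (adjusted p = 0.742 in limma). Upk3b and Lrrn4 were not well above background in any channel. The sum of the 3 tested was 169092 and 214130 in 2D culture and 23872 and 30815 in RTOC. Most of this sum was Krt7, the brightest of the 3 in every channel, so it says little of the other 2.

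Markers of endothelial cells leaned the other way, and those of macrophages were mixed. Of 7 endothelial markers, 6 were higher, with a sum of 1539 and 684 in 2D culture and 7788 and 12281 in RTOC. For 4 of the 7, 2D culture was not well above background on either array. Cdh5, an endothelial cadherin, was at least 5.01-fold higher in RTOC, and Cldn5, whose 2D channel cleared background on 1 array, had a mean log2 ratio of 4.50. Macrophage markers were higher for 3 of 6, with Adgre1 at 3.01 and Lyz2 at 1.45, and a sum of 67747 and 55749 in 2D culture and 164309 and 215100 in RTOC. Of 4 genes tested in the thymocyte list, only Ptprc, which encodes CD45 and is not limited to thymocytes, was higher, at 1.88. Cd3e, with log2 ratios of -0.03 and -0.12, and Lck, with 1.03 and -0.43, did not pass. Cd4 and Rag1 were not tested. Ptcra, whose 2D channel did not clear background on either array, was at least 1.09-fold higher in RTOC and did not pass (adjusted p = 0.0515 in limma). Their sum was 1316 and 1618 in 2D culture and 3925 and 3212 in RTOC, and Cd8a was not well above background in any channel. These lists moved in the same comparison as the retinoic acid genes, and their part in the members' ratios was not tested.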

How the data were processed

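Two-colour whole-genome mouse arrays compared RTOC (Cy5) with 2D culture (Cy3) at E14.5 and E15.5. The deposited scanner files hold, per spot, mean signals and local backgrounds as an intensity, and processed intensity values for which the authors' software subtracted background and normalized the dyes. The deposited series table holds the log10 ratio of the same processed signals. Feature Extraction is version 11.5.1.1 in the submitters' processing notes and 9.1.3.1 per the file headers. The methods name quantile normalization of all array data, and the files are not quantile normalized.

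The arrays shared 1 slide and 1 scan. Control spots and spots flagged as outliers (5 at E14.5 and 1 at E15.5) were left out. Quantile normalization was run over the 4 channels of processed signals, the log2 ratio is Cy5 over Cy3, and a probe's value is the mean of its spots. A probe was well above background where at least 0.5 of its spots carried that flag, and 23685 probes were tested in limma 3.58.1 (lmFit on an intercept, eBayes, two-sided) in R 4.3.3, with Benjamini-Hochberg adjustment over all of them and a threshold of 0.05. Pairing comes from the array, which holds both cultures. The fit leaves 1 residual degree of freedom, so its p-values lean on limma's spread over probes. Ratios above 0 are higher in RTOC. Where 1 culture was below that flag on both arrays, the change is given as at least N-fold, from normexp (offset 50), loess and Aquantile channels. Of the probes, 22951 were named by accession, 6659 by symbol and 3109 by an older symbol in RefSeq's GRCm38.p6 table, and 8455 kept the name in the files. Well above background were 53.1% of probes in 2D culture and 56.3% in RTOC at E14.5, and 53.5% and 60.9% at E15.5.

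The members, the lists and the tests were chosen with earlier results of these data known. Named were all members, up to 8 higher and 8 lower genes of the pathway list by size of the mean, 8 pathway genes set by name, and the 2 largest mean ratios of each marker list. Further markers were named where they went another way or bore on a count or a sum. For 1 further gene set by name, the result is not reported here. Steps were tested on simulated data. The alternatives are those under the processing section that closes the text.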

Additional observations from a re-analysis of the deposited data

How the results depend on the processing

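Precision is limited by 2 arrays and by the signal over background. Against 6820 probes called (3609 higher, 3211 lower), 4033 were called with no replicate block, that is with the 2 channels of an array unpaired, and 3709 with normexp and loess, with or without Aquantile. With no filter on dim probes 0 were called by limma (10666 at an unadjusted p under 0.05), and the methods' t-test gave 0 after adjustment and 3539 unadjusted. Median centring gave 7794, of which 5073 were higher and 2721 lower, and moved the median log2 ratio of tested probes to 0.06 at E14.5 and 0.24 at E15.5. Against 5 of the retinoic acid genes called, 3 were called where all 4 channels had to be well above background, 3 with no replicate block, 3 with normexp and loess, also with Aquantile, 0 with no filter (5 unadjusted), and 0 by the t-test after adjustment (1 unadjusted). Against 13 of the other pathway genes, 8 were 2-fold changed on both arrays, 6 were called with no replicate block, 7 with normexp and loess, also with Aquantile, 0 with no filter (18 unadjusted), and 0 by the t-test after adjustment (5 unadjusted). Rarg also missed the threshold with trend and robust moderation (adjusted p = 0.0573), with median centring (0.0560) and with no replicate block (0.0773). Of 295 comparisons of 23 named genes with an alternative, values from a single array left aside, 222 kept direction and side of the threshold, 71 lost the threshold and 2 passed it; the cause was not tested. The median log2 ratio of endothelial markers, 2.39, was 2.58 with median centring and 0.81 with normexp and loess, also with Aquantile. It is not exact, since 2D culture of 4 of the 7 was not well above background on either array, and was 1.43 with those 4 at their bounds. That of mesothelium markers, -2.77, was -2.76 and -2.63, and that of smooth muscle markers, -2.84, was -2.58 with normexp and loess. With each array left out in turn, medians ran from 2.68 to 2.84 (endothelium), -2.75 to -2.74 (mesothelium) and -0.031 to 0.998 (epithelium), the last turned without replicate 2, the E14.5 array. Counts of calls with 1 array have no residual degree of freedom and were not computed.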
